A study of Homo sapiens with 6 samples.

Results

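The genes described here are the PGC-1 coactivators and the main regulators of mitochondrial biogenesis, 10 of the 60504 genes in the expression table of WM164 melanoma cells. They were taken by gene symbol, and they are PPARGC1A, PPARGC1B, PPRC1, ESRRA, NRF1, TFAM, TFB1M, TFB2M, POLRMT and POLG. WM164 is an established human melanoma cell line that carries the BRAF V600E mutation in both groups. RNA-seq libraries came from cells given an empty expression vector (EV, 3 libraries) and from cells given an expression vector for HDAC8, a class I histone deacetylase (HDAC8, 3 libraries). The study asked how raised HDAC8 reshapes transcription in melanoma, and the labels list no drug treatment, no time point and no sequencing batch. Transfected cells were kept under hygromycin, and whether the lines were clones or pools is not given in the sources used here.

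PGC-1 coactivators bind no DNA themselves. They are recruited by transcription factors such as the nuclear respiratory factor NRF1 and the estrogen-related receptor ESRRA, and together these raise the nuclear genes from which mitochondria are built, among them the factors that copy and transcribe mitochondrial DNA. In melanocytic cells PPARGC1A is known as a target of the lineage factor MITF, and melanomas rich in PPARGC1A are known for their reliance on oxidative metabolism.

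The libraries held between 34741083 and 42041462 counts each. The transcript of HDAC8 itself had normalized counts (counts divided by the size factor of the library) of 384, 404 and 479 in EV and 485, 446 and 474 in HDAC8. Its log2 fold change was 0.15 (DESeq2 adjusted p = 0.856, SE 0.28). Raised HDAC8 was thus not seen in these transcript counts, which do not check the labels. The groups below are the libraries as labelled. The study probed HDAC8 protein by immunoblot in transfected cells. All 8 melanocytic markers checked were measured in the cells. Of these, 5 (MLANA, PMEL, TYR, DCT and S100B) were called lower in HDAC8, beside 5.44% of all genes. All 8 together summed to 244960 to 328761 normalized counts in EV and 137043 to 182218 in HDAC8. Among the 5 leukocyte markers, CD68 and CD3E were called higher, beside 5.57% of all genes. All 5 together summed to 2286 to 3335 in EV and 4283 to 6176 in HDAC8. PTPRC stayed at or under 3 counts in every library. Fibroblast markers summed to 2368 to 2852 in EV and 1184 to 2188 in HDAC8 with DCN at or under 3 counts, endothelial markers to 97.5 to 203 and 114 to 218 with CDH5 at or under 3 counts, and epithelial markers to 77.5 to 132 and 0 to 70.1 with EPCAM and KRT19 at or under 3 counts. The part of these markers in the results below was not tested. In bulk RNA, fewer cells of a kind and less RNA per cell cannot be told apart.

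HDAC8 replicate 1 stood apart from the other HDAC8 libraries in a way that followed base composition. Within 20 bins of transcript GC content, the median offset of its genes from the mean of the 6 libraries rose from -0.45 (log2) in the GC-poorest bin to 0.45 in the GC-richest. The offset went from 0.21 to -0.11 in HDAC8 replicate 2, and stayed between -0.02 and 0.06 in HDAC8 replicate 3. In EV replicate 2 it ran the same way as in HDAC8 replicate 1, from -0.11 to 0.15, and in EV replicates 1 and 3 the opposite way, from 0.21 to -0.14 and from 0.20 to -0.26. The 10 genes run from 36% GC in TFAM to 66.1% in POLRMT, and 6 of them had their highest level of all libraries in HDAC8 replicate 1 and 3 their lowest. Fits were also made without that library and after normalization within the GC bins, the latter chosen after seeing the data. They are given for each of the 10 genes whose call or direction changed, and beside some other results. For genes of the lists around the 10, changes of call in these fits are given only in part.

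**Figure D1:**
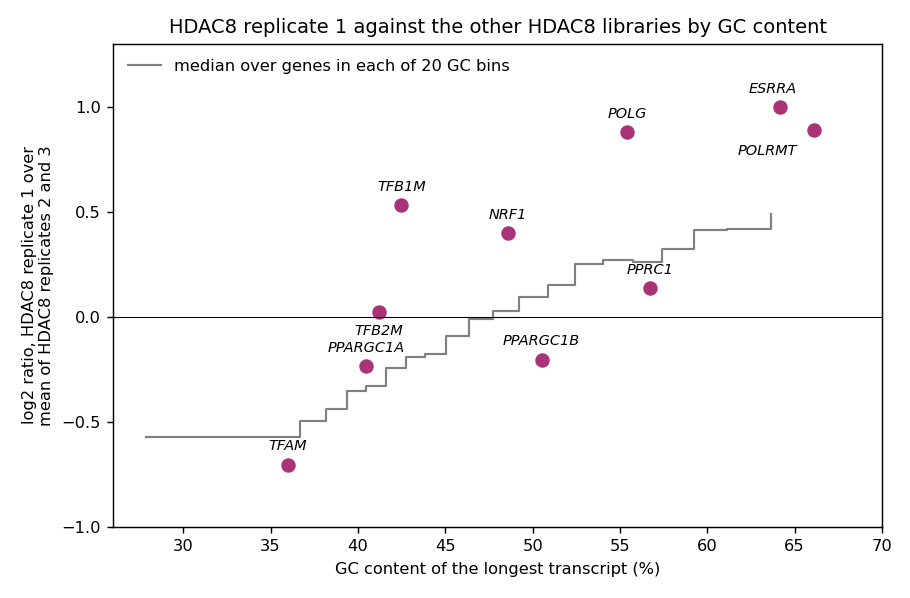
Level of each regulator in HDAC8 replicate 1 over the mean of HDAC8 replicates 2 and 3 (log2 ratio of normalized counts, vertical axis) against the GC content of its longest transcript (%, horizontal axis), with the median of all genes in each of 20 GC bins as a grey line. The line climbs with GC content, TFAM lies at -0.70 at the GC-poor end, and ESRRA (1.00) and POLRMT (0.89) lie above the line at the GC-rich end.

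DESeq2 called 1 of the 10 genes higher in HDAC8 (POLRMT) and 1 lower (PPARGC1A), where a call needed an adjusted p under 0.05 and a log2 fold change beyond 0.58 in either direction. Over all 21021 genes with an adjusted p, 5.57% were called higher and 5.44% lower, and 1 call of 10 in each direction is less than 1 gene away from these shares. The other 8 genes had adjusted p from 0.264 to 0.95. The EV and HDAC8 libraries did not overlap for 3 of the 10 (PPARGC1A, PPARGC1B and POLRMT), against 29.1% of all genes. After normalization within GC bins they did not overlap for 4 of the 10 (the same 3 and PPRC1), against 33.2% of all genes. Of the 10 log2 fold changes 7 were above 0 and 3 below, with a median of 0.15 beside -0.003 over all genes. Each p-value measures only the spread between these libraries, which the labels number as biological replicates without naming separate cultures.

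**Figure D2:**
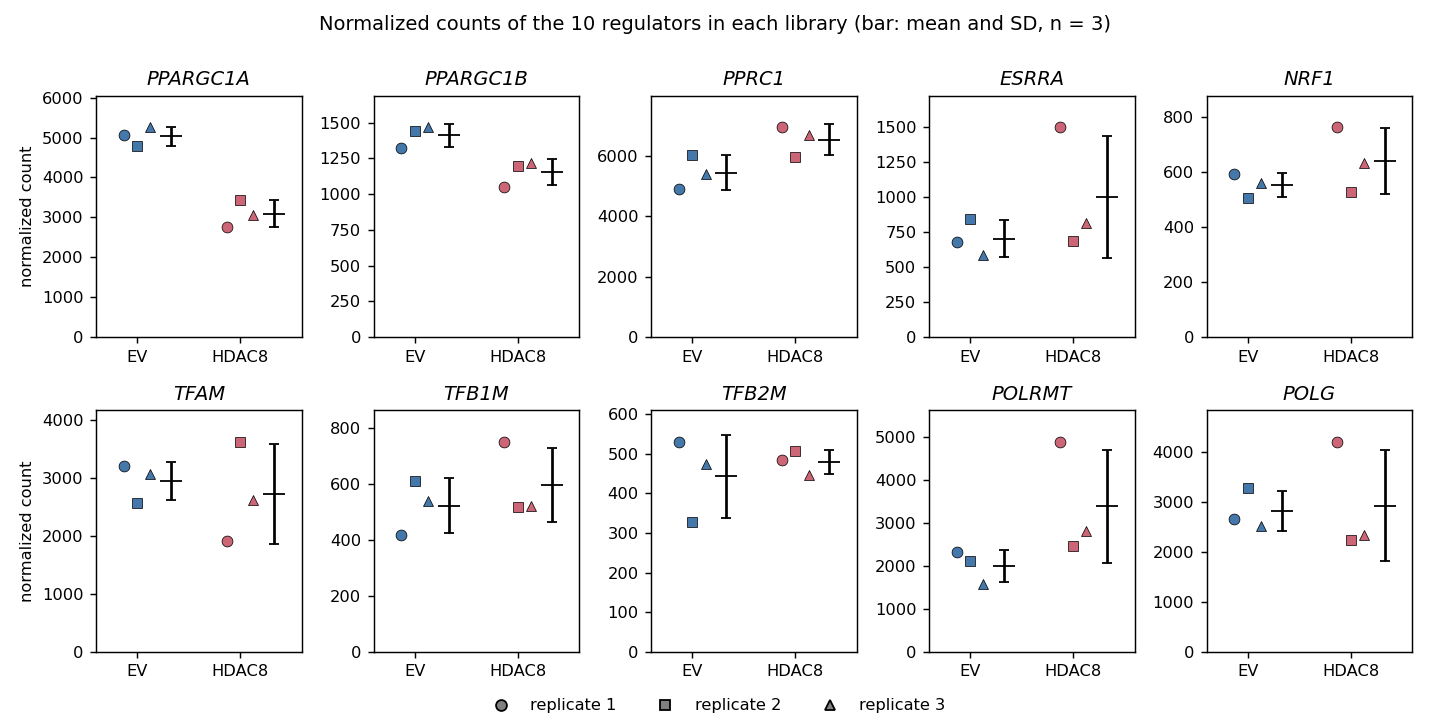
Normalized count of each of the 10 regulators in every library (vertical axis from 0), with replicates 1, 2 and 3 as circle, square and triangle and a bar for the mean and SD of each group (n = 3). The PPARGC1A points of HDAC8 (2759 to 3437) all lie below those of EV (4785 to 5262), while the spread of ESRRA, POLRMT and POLG in HDAC8 comes largely from the circle of replicate 1.

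The nuclear respiratory factor NRF1 is a DNA-binding member with a short motif that can be read in promoters, so the promoter windows of the group are shown where they hold it. RefSeq windows (GRCh38.p14) reached from 250 bases before to 50 bases after each transcription start and covered 9 of the 10 genes in 10 windows, with a pair for PPARGC1A. On either strand, the NRF1 motif GCGCATGC stood in 4 of the 10 windows (ESRRA, POLRMT, TFB1M and TFB2M), compared with 3.05% of all 35116 windows. The stretches below are on the gene's strand, with the motif or overlapping copies of it in capitals (a copy on the other strand reads GCATGCGC). They are ESRRA at chr11:64305475-64305522 (plus strand), POLRMT at chr19:633538-633689 (minus), TFB1M at chr6:155314587-155314636 (minus) and TFB2M at chr1:246566262-246566296 (minus).
ESRRA: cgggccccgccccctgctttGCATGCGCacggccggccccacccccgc
POLRMT: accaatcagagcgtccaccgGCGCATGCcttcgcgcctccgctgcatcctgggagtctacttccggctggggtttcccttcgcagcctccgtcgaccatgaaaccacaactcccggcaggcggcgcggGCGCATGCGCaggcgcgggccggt
TFB1M: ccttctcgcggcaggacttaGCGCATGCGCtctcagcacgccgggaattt
TFB2M: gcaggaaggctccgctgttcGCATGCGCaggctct
The POLRMT window held 3 matches, which began 132, 24 and 22 bases before the start, and the last 2 overlap in a longer stretch that is a palindrome. TFB1M carried the same overlapping pair at 132 and 130 bases before its start. The ESRRA match began 29 and the TFB2M match 15 bases before the start.

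The other motifs were sparser. The GABP motif CCGGAAG stood in the POLRMT and TFB1M windows (10.3% of all windows) and the YY1 motif AAGATGGC in the PPRC1 window (2.89%). The letters searched for ERR (TCAAGGTCA, 0.353% of all windows), CREB (TGACGTCA, 1.85%) and AP-1 (TGANTCA, 7.71%) stood in 0 of the 10. A MITF motif (TCACGTG or TCATGTG, 6.52% of all windows) was found in the farther upstream of both PPARGC1A windows, at chr4:24473002-24473048 on the minus strand, which lies outside the span of the gene in GENCODE 44, and its letters are in capitals as read from the other strand.
PPARGC1A: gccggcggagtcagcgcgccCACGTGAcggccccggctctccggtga
These matches describe letters in reference windows and carry no measurement of binding in WM164 cells.

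PPARGC1A (ENSG00000109819, GRCh38 chromosome 4, 23755041 to 23904089, minus strand) encodes PGC-1α, the founding coactivator of the family. Its normalized counts were 5060, 4785 and 5262 in EV and 2759, 3437 and 3058 in HDAC8. Every HDAC8 library was below every EV library, with HDAC8 replicate 1 the lowest. The mean fell from 5036 ± 239 to 3085 ± 340 (SD, n = 3 each), a log2 fold change of -0.71 (DESeq2 adjusted p = 7.18e-05, SE 0.15), so the HDAC8 level was 0.613 of the EV level (95% interval 0.499 to 0.752). Without HDAC8 replicate 1 the log2 fold change was -0.63 (DESeq2 adjusted p = 1.5e-05). After normalization within GC bins the groups stayed apart at 4638, 5058 and 4825 against 3436, 3324 and 3107, and the log2 fold change of -0.56 (DESeq2 adjusted p = 8.65e-06) lay just inside the fold change minimum of 0.58, so the gene was no longer called.

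PPARGC1B (ENSG00000155846, chromosome 5, 149730298 to 149855022, plus strand) encodes PGC-1β, a close relative that drives many of the same nuclear targets. It had 1322, 1444 and 1470 normalized counts in EV and 1049, 1197 and 1221 in HDAC8. The groups did not overlap, yet the log2 fold change of -0.29 (SE 0.19, 95% interval -0.66 to 0.09) did not pass the test (DESeq2 adjusted p = 0.394). PPRC1 (ENSG00000148840, chromosome 10, 102132994 to 102150333, plus strand) encodes PRC, the coactivator of the family known to respond to growth signals. Its values of 4891, 6027 and 5402 in EV and 6948, 5962 and 6684 in HDAC8 overlapped between the groups, with a log2 fold change of 0.26 (DESeq2 adjusted p = 0.264, SE 0.15, 95% interval -0.02 to 0.55). Without HDAC8 replicate 1 and within GC bins, the log2 fold changes were -0.23 and -0.32 for PPARGC1B and 0.22 and 0.18 for PPRC1, none of them called.

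The balance within the family differed between the groups. The ratio of PPARGC1A to PPRC1 counts was 1.03, 0.794 and 0.974 in EV and 0.397, 0.577 and 0.457 in HDAC8, so the groups did not overlap in it. Per kilobase of merged exons, the PPARGC1A share of each library was 28.6% to 34% in EV and 17.2% to 22.8% in HDAC8. PPARGC1A held 31.7% ± 2.81 of the summed level of the 3 coactivators in EV and 19.7% ± 2.84 in HDAC8, and PPRC1 held 60.8% ± 2.96 and 74.1% ± 3.4 (SD, n = 3). PPARGC1B held the smallest share in both groups, 7.48% ± 0.206 and 6.22% ± 0.618. Since these shares are built from the counts that were just described, they were given no test of their own. PPARGC1A and PPRC1 differ in GC content (40.5% and 56.7%), and the ratio and the shares were not computed within GC bins. With the length of the longest transcript in place of merged exons, the PPARGC1A share was 41% in EV and 26.9% in HDAC8.

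Of the DNA-binding partners, neither passed the test. ESRRA (ENSG00000173153, chromosome 11, 64305497 to 64316743, plus strand), an orphan nuclear receptor that PGC-1 coactivators turn on, had 681, 842 and 582 normalized counts in EV and 1497, 684 and 816 in HDAC8. Only HDAC8 replicate 1 lay above the EV range, and the log2 fold change of 0.51 (DESeq2 adjusted p = 0.325, SE 0.31) became 0.09 without that library and 0.26 within GC bins. NRF1 (ENSG00000106459, chromosome 7, 129611720 to 129757082, plus strand), whose motif is shown above, had 594, 506 and 562 in EV and 764, 526 and 633 in HDAC8. The groups overlapped (log2 fold change 0.21, DESeq2 adjusted p = 0.745, SE 0.27), and the value was 0.06 without HDAC8 replicate 1. An exon of ESRRA shares 284 bases with TRMT112 on the opposite strand, and counting by strand is not stated.

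POLRMT (ENSG00000099821, chromosome 19, 617221 to 633537, minus strand) is the RNA polymerase that transcribes mitochondrial DNA and primes its replication. Its normalized counts were 2313, 2106 and 1580 in EV and 4883, 2459 and 2808 in HDAC8. All HDAC8 libraries were above all EV libraries, but HDAC8 replicate 2 exceeded EV replicate 1 only narrowly and HDAC8 replicate 1 was far above the rest. The mean rose from 2000 ± 378 to 3383 ± 1310 (SD, n = 3 each), with a log2 fold change of 0.76 (DESeq2 adjusted p = 0.019, SE 0.24, 95% interval 0.28 to 1.24). Without HDAC8 replicate 1 the log2 fold change was 0.40 (DESeq2 adjusted p = 0.145), without EV replicate 3 it was 0.61 (adjusted p = 0.178) and without EV replicate 2 it was 0.80 (adjusted p = 0.0501), so the call was lost each time. Within GC bins it was 0.50 (DESeq2 adjusted p = 0.0199), below the fold change minimum, and neither POLRMT nor any other of the 10 genes was then called, beside 5.84% of 21537 genes called higher and 6.05% lower. PPARGC1A and POLRMT both kept an adjusted p under 0.05 in that fit, and it was the fold change minimum that they missed.

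The factors that act with the polymerase on mitochondrial DNA did not pass the test. TFAM (ENSG00000108064, chromosome 10, 58385345 to 58399220, plus strand) packages mitochondrial DNA and opens its promoters, and it had 3207, 2572 and 3071 normalized counts in EV and 1919, 3624 and 2627 in HDAC8. The HDAC8 libraries held both the lowest and the highest value. Its log2 fold change of -0.12 (DESeq2 adjusted p = 0.854, SE 0.22) changed sign without HDAC8 replicate 1 (0.08) and within GC bins (0.02).

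TFB2M (ENSG00000162851, chromosome 1, 246540561 to 246566261, minus strand) melts the mitochondrial promoter together with the polymerase. It had 530, 327 and 474 normalized counts in EV and 484, 506 and 446 in HDAC8, within the EV range throughout (log2 fold change 0.11, DESeq2 adjusted p = 0.911, SE 0.30). TFB1M (ENSG00000029639, chromosome 6, 155256134 to 155314493, minus strand), which methylates the small mitochondrial rRNA, had 419, 612 and 540 in EV and 752, 517 and 523 in HDAC8. Only HDAC8 replicate 1 left the EV range (log2 fold change 0.19, DESeq2 adjusted p = 0.806, SE 0.29), and without it the value was -0.01. TFB1M exons share 1264 bases with TIAM2 on the opposite strand and 591 bases with a long noncoding RNA (ENSG00000235381) on the same strand, so its reads may be shared with them.

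POLG (ENSG00000140521, chromosome 15, 89305198 to 89334861, minus strand), the catalytic subunit of the mitochondrial DNA polymerase, had 2655, 3273 and 2517 normalized counts in EV and 4196, 2235 and 2329 in HDAC8. HDAC8 replicate 1 was the highest of all libraries and the other HDAC8 libraries were the lowest. The log2 fold change of 0.05 (DESeq2 adjusted p = 0.95, SE 0.23) turned to -0.30 without replicate 1 (adjusted p = 0.214) and to -0.05 within GC bins. POLG shares 458 exonic bases with FANCI on the opposite strand and 783 with POLGARF on the same strand, so its reads too may be shared.

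**Figure D3:**
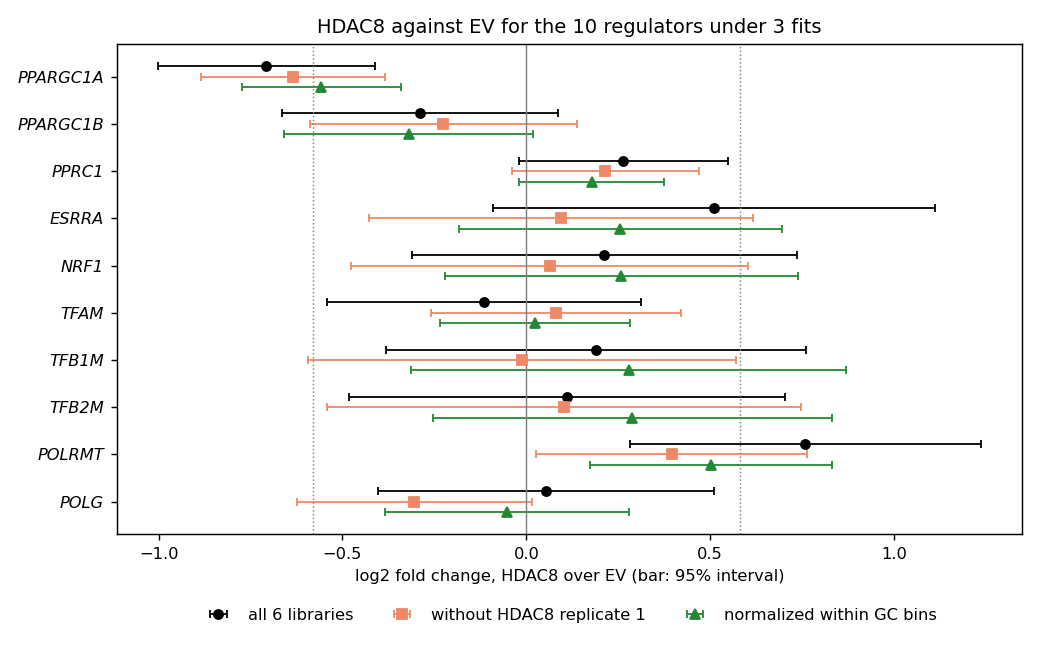
Log2 fold change of HDAC8 over EV (horizontal axis, bar for the 95% interval) for the 10 regulators from all 6 libraries (black circles), without HDAC8 replicate 1 (orange squares) and after normalization within GC bins (green triangles), with dotted lines at the fold change minimum of 0.58 in either direction. PPARGC1A stays between -0.71 and -0.56 with intervals below 0 in all 3 fits, whereas POLRMT moves from 0.76 to 0.40 and POLG from 0.05 to -0.30.

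Levels could be compared between genes once counts were divided by length. Per kilobase of merged exons, PPRC1 had the highest level in EV at 892 ± 93.3 normalized counts, followed by TFAM (558 ± 63.3), PPARGC1A (463 ± 22), POLRMT (395 ± 74.7) and POLG (340 ± 48.7). TFB2M (249 ± 58.7) and ESRRA (226 ± 42.4) came next, and NRF1 (134 ± 10.7), TFB1M (127 ± 23.6) and PPARGC1B (110 ± 6.11) were the lowest (SD, n = 3). In that order the neighbours PPRC1 and TFAM, TFAM and PPARGC1A, and ESRRA and NRF1 were farther apart than their SDs reach, and the other neighbours were not.

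In HDAC8 the order was PPRC1 (1071 ± 83.7), POLRMT (669 ± 259), TFAM (516 ± 162), POLG (353 ± 134), ESRRA (322 ± 141), PPARGC1A (284 ± 31.2), TFB2M (268 ± 16.9), NRF1 (156 ± 28.9), TFB1M (145 ± 32.5) and PPARGC1B (89.7 ± 7.22). PPARGC1A stood at place 3 in EV and place 6 in HDAC8, but at place 4 in HDAC8 without replicate 1, where its 299 was above POLG (276) and ESRRA (242). Between PPRC1 and POLRMT, TFB2M and NRF1, and TFB1M and PPARGC1B the gap was wider than the SDs, and for the remaining neighbours it was not. Dividing by the longest transcript instead kept 4 of the 10 EV places, with PPARGC1A then at place 2 in EV, above TFAM, and at place 5 in HDAC8.

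**Figure D4:**
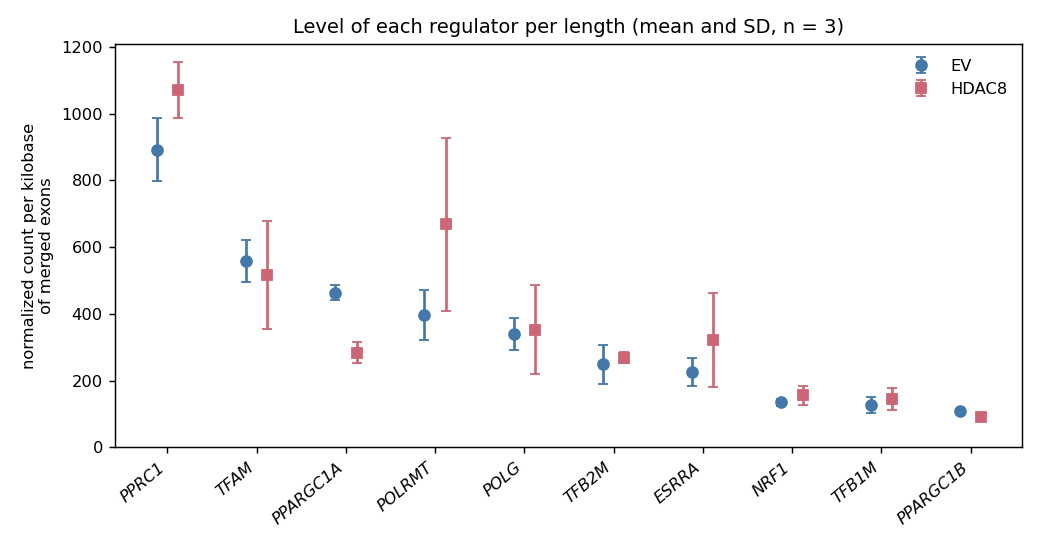
Normalized count per kilobase of merged exons (vertical axis from 0) of the 10 regulators, ordered by their EV level, as mean and SD of 3 EV (blue circles) and 3 HDAC8 libraries (red squares). PPRC1 is highest in both groups, PPARGC1A drops from 463 to 284 with short error bars, and the longest error bar is that of POLRMT in HDAC8.

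The genes most like each called member over the 6 libraries were found by Pearson's r of log2(normalized count + 1) among 14451 genes with a mean of at least 50, as a description without a p. For PPARGC1A, a choice made after its values were seen, they were SLCO5A1 (r = 0.998, log2 fold change -1.06), GNPDA1 (r = 0.998, log2 fold change -0.28 and not called) and SLC24A5 (r = 0.998, log2 fold change -1.62). SLCO5A1 had 12832, 11854 and 13519 normalized counts in EV and 5107, 6911 and 6300 in HDAC8, the same ranking of libraries as PPARGC1A. SLC24A5, a cation exchanger of the pigment organelle, had 10266, 10285 and 11776 in EV and 2580, 4556 and 3413 in HDAC8. For POLRMT they were ADAMTS1 (r = 0.996, log2 fold change 0.53 and not called), VARS2 (r = 0.996, log2 fold change 0.81) and ADAT3 (r = 0.990, log2 fold change 0.57 and not called). VARS2, the mitochondrial valyl-tRNA synthetase, had 1643, 1657 and 1136 in EV and 3911, 1778 and 2103 in HDAC8, and like POLRMT it was highest in HDAC8 replicate 1. Each gene carries the GC offsets of the libraries at its own GC content. That content was 66.1% for POLRMT, beside 47.3% for ADAMTS1, 60.2% for VARS2 and 71.7% for ADAT3. It was 40.5% for PPARGC1A, beside 43.7% for SLCO5A1, 49.3% for GNPDA1 and 34.3% for SLC24A5. The part of these offsets in the correlations was not tested. With 6 libraries, a gene that lies apart between EV and HDAC8 can reach a high r even at a small fold change, as GNPDA1 did.

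Among 29 upstream regulators of PPARGC1A, 1 was called higher and 2 lower (5.57% and 5.44% of all genes), with a median log2 fold change of -0.10. MITF, the melanocyte factor known to drive PPARGC1A, had 17824, 16257 and 17935 normalized counts in EV and 11314, 17920 and 16096 in HDAC8. The groups overlapped and only HDAC8 replicate 1 was clearly low (log2 fold change -0.20, DESeq2 adjusted p = 0.544, SE 0.17), and within GC bins the value was -0.06. MYBBP1A, known to repress PGC-1α, rose from 4965, 6294 and 4791 to 12396, 8940 and 9663 (log2 fold change 0.95, DESeq2 adjusted p = 6.81e-07, SE 0.17). PRKAB2, a regulatory subunit of the energy sensor AMPK, fell by 0.96 on the log2 scale (DESeq2 adjusted p = 1.38e-04, SE 0.21), from 2215 to 2661 down to 927 to 1438 normalized counts. NCOA3, a nuclear receptor coactivator, fell by 0.61 (DESeq2 adjusted p = 0.00562, SE 0.17), from 3753 to 4642 down to 2216 to 2970, but its log2 fold change was under the minimum within GC bins (-0.54), without HDAC8 replicate 1 (-0.49) and without EV replicate 3 (-0.52, adjusted p = 0.102). MYBBP1A and PRKAB2 stayed called in both of these fits.

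Of 17 transcription factors that PGC-1 coactivators are known to work with, 1 was called higher and 0 lower (median 0.07), and over all genes these shares were 5.57% and 5.44%. DESeq2 put 3 above and 1 below 0 at an unadjusted p under 0.05, and the share of all genes at that threshold is not given here. By edgeR and by limma-voom, 1 was also called higher and 0 lower. Over the 26162 genes tested, edgeR called 1080 higher and 1045 lower, and limma-voom 994 and 1083. The called gene was MEF2C, a partner in muscle and a regulator of melanocytes, with 781, 643 and 621 normalized counts in EV and 1151, 1556 and 1496 in HDAC8. These groups were well apart, with a log2 fold change of 1.04 (DESeq2 adjusted p = 1.02e-04, SE 0.23) that was 1.16 both within GC bins and without HDAC8 replicate 1.

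Next came the machinery that POLG and POLRMT work with. Of 20 genes of mitochondrial DNA replication and the nucleoid, 1 was called higher and 1 lower (median 0.19), near the 5.57% and 5.44% of all genes. TOP3A, a topoisomerase that separates daughter molecules, had 1968, 2044 and 1621 normalized counts in EV and 3381, 3272 and 3676 in HDAC8 (log2 fold change 0.87, DESeq2 adjusted p = 5.23e-06, SE 0.17), without overlap and with the same size in each of the 3 fits (0.82 to 0.89). EXOG, a mitochondrial nuclease, was at 621 to 766 in EV and 392 to 436 in HDAC8 (log2 fold change -0.72, DESeq2 adjusted p = 0.0483), but leaving out any library ended its call (adjusted p from 0.0676 to 0.272, the highest without EV replicate 3), and edgeR and limma-voom did not call it.

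Of 29 genes of mitochondrial transcription and RNA processing, 2 were called higher and 1 lower (median 0.07), beside 5.57% and 5.44% of all genes. Within GC bins the counts were 4 and 0, beside 5.84% and 6.05% of all genes. ELAC2, which cuts the 3′ ends of tRNAs, had 2482, 2538 and 2418 normalized counts in EV and 4576, 3738 and 4313 in HDAC8 (log2 fold change 0.76, DESeq2 adjusted p = 1.85e-05, SE 0.15), and was called in all 3 fits. MRM3, a methyltransferase of the large mitochondrial rRNA, had a log2 fold change of 0.99 (DESeq2 adjusted p = 0.0172) and lost its call without HDAC8 replicate 1 (adjusted p = 0.0944), EV replicate 1 (0.0843) or EV replicate 3 (0.132). FASTKD1, an RNA-binding protein, had -0.58 (DESeq2 adjusted p = 0.0257) and fell under the minimum in both other fits, as it did without EV replicate 3 (-0.49) or HDAC8 replicate 2 (-0.55), and without EV replicate 1 its adjusted p was 0.101.

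Transcripts of the mitochondrial genome were lower in the libraries labelled HDAC8. They took 9.66%, 10.2% and 12.8% of the counts in EV and 4.46%, 7.94% and 7.63% in HDAC8, without overlap. The mean was 10.9% ± 1.69 in EV and 6.68% ± 1.93 in HDAC8 (SD, n = 3), and the exact two-sided permutation test gave p = 0.1, the smallest value that 3 against 3 libraries allow. The difference of -4.23 percentage points was -3.12 without HDAC8 replicate 1. Of the 13 mRNAs and 2 rRNAs, 9 mRNAs were called lower (5.44% of all genes) and 0 genes higher, and all 15 log2 fold changes were below 0 (median -0.82). At an unadjusted p under 0.05 DESeq2 put 11 of them lower and 0 higher, and the share of all genes at that threshold is not given here. Of the 15 mitochondrially encoded genes, edgeR called 11 and limma-voom 12 lower and both 0 higher. Over the 26162 genes tested, edgeR called 1045 and limma-voom 1083 lower. The GC-bin fit called 9 lower too, beside 6.05% of all genes, but they were not the same 9. In that fit MT-CO1 lost its call (DESeq2 adjusted p = 0.097) and MT-ND2 gained one (DESeq2 adjusted p = 0.0326). These transcripts arise by cutting of long precursors, so the 15 values are not independent of each other. The study reported a higher rate of mitochondrial respiration with HDAC8, measured as oxygen consumption in WM164 cells among others. In single-cell RNA-seq of patient melanomas it also reported an association of HDAC8 expression with a gene signature of oxidative phosphorylation. That signature was not scored here. Transcript counts do not measure respiration, and how they relate to it was not tested.

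MT-ND4, a subunit of complex I, had 497811, 552223 and 776467 normalized counts in EV and 207579, 372152 and 371892 in HDAC8 (log2 fold change -0.94, DESeq2 adjusted p = 1.21e-04, SE 0.21). MT-CYB, of complex III, had a log2 fold change of -0.93 (DESeq2 adjusted p = 8.71e-06) and MT-ATP6, of the ATP synthase, -0.85 (DESeq2 adjusted p = 8.89e-05). HDAC8 replicate 1 was the lowest library for these 3 genes, and without it 5 of the 15 genes were called. MT-ATP6 was then not called at a log2 fold change of -0.71 (adjusted p = 0.069), and MT-ND4 was not called without HDAC8 replicate 2 at -1.07 (adjusted p = 0.0577). MT-ND1 had 104183, 130668 and 165930 in EV and 95360, 133943 and 138287 in HDAC8, overlapping in part (log2 fold change -0.12, DESeq2 adjusted p = 0.787). The large rRNA MT-RNR2 ran from 69618 to 219645 in EV and stood at 1132, 161674 and 76562 in HDAC8, so HDAC8 replicate 1 was far below every other library and the groups overlapped (log2 fold change -0.76, SE 1.43).

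Antioxidant enzymes are known targets of PGC-1α, and of 10 in the list DESeq2 called 4 lower and 0 higher (median -0.38), where 5.44% of all genes were called lower. At an unadjusted p under 0.05 it put 5 lower and 1 higher, and the share of all genes at that threshold is not given here. By edgeR and by limma-voom, 4 were called lower and 0 higher. Over the 26162 genes tested, edgeR called 1045 and limma-voom 1083 lower. CAT, catalase of the peroxisome, had 1935, 1957 and 1989 normalized counts in EV and 798, 885 and 1051 in HDAC8 (log2 fold change -1.11, DESeq2 adjusted p = 4.52e-07, SE 0.19). The mitochondrial superoxide dismutase SOD2 had 2761, 2316 and 2807 in EV and 1155, 1467 and 1404 in HDAC8 (log2 fold change -0.97, DESeq2 adjusted p = 4.41e-06, SE 0.18). GLRX2, a mitochondrial glutaredoxin, fell by 1.37 (DESeq2 adjusted p = 2.98e-04) and GPX1, a glutathione peroxidase, by 0.91 (DESeq2 adjusted p = 6.30e-05) on the log2 scale. None of these 4 overlapped between the groups, and each stayed called without HDAC8 replicate 1 and within GC bins.

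Other mitochondrial functions gave calls at about the share of all genes, of which 5.44% were called lower. Of 17 genes of the tricarboxylic acid cycle, 1 was called lower and 0 higher, the former being IDH2, with 1317, 1600 and 1399 normalized counts in EV and 758, 852 and 684 in HDAC8 (log2 fold change -0.91, DESeq2 adjusted p = 3.02e-04, SE 0.21). Of 18 genes of fatty acid oxidation, DESeq2, edgeR and limma-voom called 0. At an unadjusted p under 0.05, where the share of all genes is not given here, 3 were lower and 1 higher. The GC-bin fit called 3 lower, beside 6.05% of all genes. Of 18 genes of protein import 1 was called lower, the receptor TOMM20 (4867 to 5670 in EV, 2305 to 3273 in HDAC8, log2 fold change -0.88, DESeq2 adjusted p = 6.55e-06).

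Of 15 genes of fusion, fission and mitophagy, 2 were called higher (5.57% of all genes) and 1 lower (5.44%), with a median of 0.35. MFN1, which fuses outer membranes, had 1822, 1718 and 1987 normalized counts in EV and 2968, 3754 and 2704 in HDAC8 (log2 fold change 0.77, DESeq2 adjusted p = 4.08e-04, SE 0.18). DNM1L, the GTPase that divides mitochondria, had 5463, 4841 and 5773 in EV and 2792, 3642 and 3351 in HDAC8 (log2 fold change -0.72, DESeq2 adjusted p = 1.65e-04, SE 0.16). Both were apart between groups and stayed called in the other fits. FIS1, a fission factor of the outer membrane, had 0.73 (DESeq2 adjusted p = 0.041) but 0.56 without HDAC8 replicate 1 (adjusted p = 0.148), and it was not called without EV replicate 1 (0.224), EV replicate 3 (0.196) or HDAC8 replicate 3 (0.124) either.

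**Figure D5:**
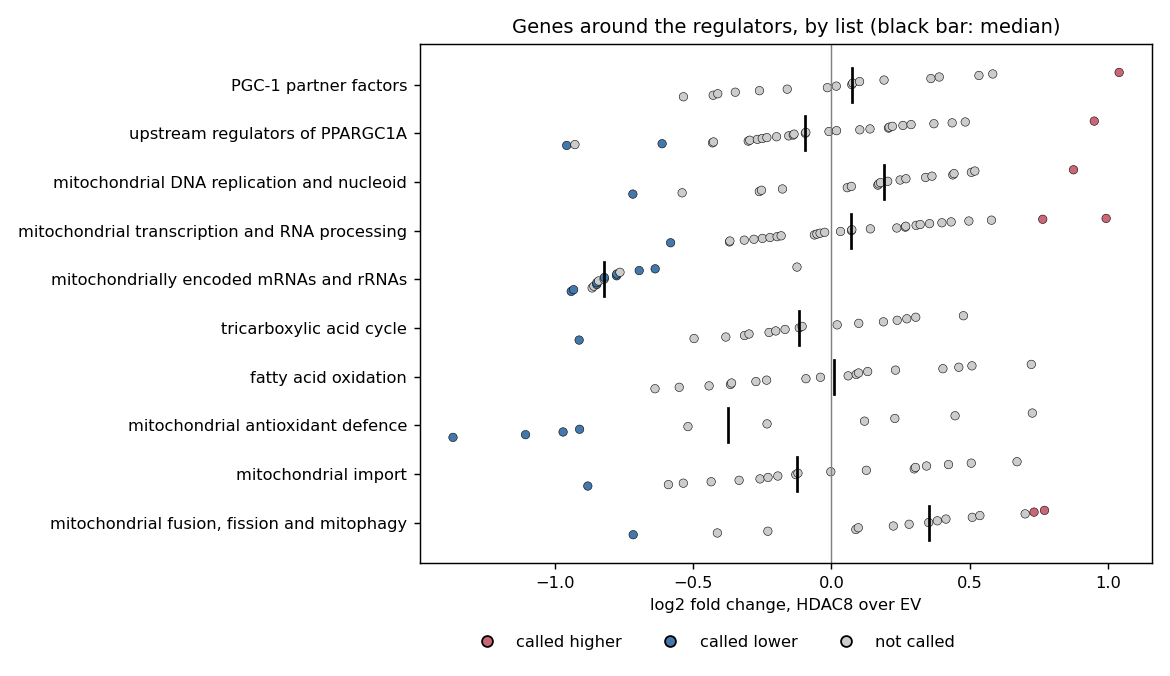
Log2 fold change of HDAC8 over EV (horizontal axis) for each gene with an adjusted p in 10 lists around the regulators (rows), coloured by whether DESeq2 called it higher (red), lower (blue) or not (grey), with a black bar at the median of each list; vertical offsets within a row only separate points. The mitochondrially encoded genes all lie below 0 with a median of -0.82, while the medians of the other lists lie between -0.38 and 0.35.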

How the data were processed

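Per the labels and the methods of the study, RNA of WM164 cells was sequenced in 6 libraries (3 EV, 3 HDAC8), and the authors trimmed reads with Trimmomatic, aligned them with STAR and used RSEM to assign reads to genes. What they deposited is a table of expected counts, unscaled between libraries, here rounded to whole numbers. The build, annotation, strand setting and treatment of duplicates are not given in the sources used here. Positions, exon lengths and GC content came from GENCODE 44 (GRCh38), in which 56558 of 60504 identifiers were found. Rows without a symbol (3508) held at most 0.102% of the counts. No molecular identifiers are named for these reads, so sampling error understates the error of a count.

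The main comparison was a Wald test (two-sided, DESeq2 1.42.0 in R 4.3.3) of HDAC8 against EV over the 26162 genes that had 10 counts or more in total, with Benjamini-Hochberg adjustment over all genes. DESeq2 gave no adjusted p for 5141 genes, which were left out of counts. Calls needed an adjusted p under 0.05 and a log2 fold change beyond 0.58 in either direction, after the methods of the study. Intervals are at the 95% level. Alternatives were edgeR 4.0.16 (quasi-likelihood), limma-voom 3.58.1, other scalings, filters and thresholds, a replicate block, a fit without mitochondrially encoded genes, each library left out and, chosen after seeing the data, median normalization within 20 GC bins. Replicates differed by more than sampling noise, so each counts once.

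The 10 genes and the lists around them were chosen with earlier results of these data known. Named genes were the 10, HDAC8, MITF, the mitochondrially encoded genes, all called genes of a list with 5 or fewer calls or else its 3 largest with a mean of at least 50, and the 3 genes most like the member with the largest called change (POLRMT). The marker genes, and the genes most like PPARGC1A, were named beside that rule, and 1 marker gene is not reported here.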

Additional observations from a re-analysis of the deposited data

How the results depend on the processing

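Over 15 other fits, neither sign nor call of 4 of the 10 regulators changed, and 137 of 150 values held in both. The call of PPARGC1A was lost in 1 of these fits, that within GC bins, and its log2 fold change ran from -0.79 to -0.56 (adjusted p from 8.65e-06 to 0.00703). The log2 fold change of POLRMT ran from 0.40 to 0.95 and its adjusted p from 0.00236 to 0.178, with the call lost in 4 fits. The number of regulators called higher was 0 within GC bins, at an adjusted p under 0.01 and under the test against the fold change minimum, and 0 to 1 with a library left out (0 without HDAC8 replicate 1, EV replicate 2 or EV replicate 3). The number called lower was 0 within GC bins and under the test against the minimum. Over all genes that test called 292 higher and 291 lower. Leaving out a library gave 882 to 1223 higher, the fewest without HDAC8 replicate 3. It gave 753 to 1386 lower, the fewest without EV replicate 3. Signs turned in values that never passed the test. TFAM was 0.024 within GC bins and -0.37 to 0.082 with a library left out, TFB1M -0.012 to 0.31, TFB2M -0.069 to 0.26, POLG -0.30 to 0.22 and MT-ND1 -0.28 to 0.055, and POLG was -0.054 within GC bins. The replicate numbers did not pair the libraries (correlations of -0.03, -0.07 and 0.04), and the replicate block called 1075 genes higher and 1078 lower, with 1 regulator each way, and gave POLG -0.0019. By the longest transcript 4 of 10 places in the order of levels were kept, and by scaling to library totals all 10. Of 510 values of other named genes 449 were unaffected, 42 lost and 17 gained a call and 2 changed sign. Of 298 counts over lists 52 moved by over 1.5 times. The 10 regulators had at least 350 counts in every library, and a group held 3 libraries. The cause of the profile of HDAC8 replicate 1 was not tested.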

Other observations

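CD3E, a T cell receptor gene, had 0 normalized counts in every EV library and 78.7, 91.1 and 50.1 in HDAC8, while PTPRC stayed at or under 3 counts in every library.

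After normalization within GC bins, PPRC1 stood at 5453, 5599 and 5963 normalized counts in EV and 6054, 6477 and 6712 in HDAC8, without overlap, with a log2 fold change of 0.18 (DESeq2 adjusted p = 0.248). TFAM, which spread widely in HDAC8, came to 2691, 3217 and 2638 there on that scale, beside 2836, 2832 and 2742 in EV.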
